A study of Mus musculus with 8 samples.

Results

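The data described here are the levels of 32 genes of mitosis in sorted mouse splenic follicular B cells, B cells of the type that recirculates through lymphoid follicles and rests until it meets antigen. The genes were taken by symbol from a table of raw read counts for 43629 Ensembl genes, in which each of the 32 symbols matched 1 identifier, and 30 of them passed the filter on low counts that left 13035 genes tested. The 8 RNA-seq libraries fell into 2 groups of 4. Cells of the group labelled GFP-ZFP36L1 carried the Rosa26GFPZFP36L1 allele together with CD23cre in the heterozygous state, and control cells carried the Rosa26GFPZFP36L1 allele without Cre. ZFP36L1 is a zinc finger protein that recognises AU-rich stretches of mRNA, mostly in the 3' UTR, and speeds their decay. CD23cre is a Cre recombinase under the control of the CD23 gene, which is active from the mature B cell stage onwards. The allele was thus present in every library, and Cre differed between the groups along with the expression that the labels name. No age is given in the labels, nor whether each library was made from its own animal, so a p-value here reflects library-to-library spread, which may be technical.

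Most lymphocytes in the spleen are in a non-dividing state and start to divide only after they meet antigen. In such cells the genes of mitosis are held down by the DREAM complex, which joins retinoblastoma-family pocket proteins to the MuvB core and binds a cell cycle homology region in their promoters. In dividing cells the same core works with B-MYB and FOXM1 to raise these genes in G2, often through neighbouring CCAAT boxes bound by NF-Y, and the anaphase-promoting complex then destroys many of the proteins at the end of mitosis. Transcripts of this group are therefore commonly read as a measure of how many cells of a sample are dividing. In bulk RNA, fewer cells of a type and less RNA per cell cannot be told apart.

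The members share promoter letters that the choice of genes did not use. RefSeq promoters (GRCm38.p6, 250 bases before to 50 bases from the start of transcription) were found for 27 of the 32 genes. The letters of the cell cycle homology region, TTTGAA on either strand (TTCAAA on the other) or TTCGAA, were present in 21 of the 27 member promoters (77.8%), against 16.7% of 9270 tested genes and 21.7% of all 27025 genes with a promoter. CCAAT on either strand (ATTGG on the other) was present in 20 of the 27 (74.1%), against 43.2% of the tested genes and 41.1% of all genes. Both kinds of letters were present in 18 of the 27 (66.7%), against 8.22% of the tested genes and 9.65% of all genes. A CCAAT box and homology-region letters can overlap by at most 1 base. In a window of 150 bases before the start the member shares were as above, and the shares among tested genes were 9.78% for the first, 35.2% for CCAAT and 4.22% for both.

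Stretches of 100 bases before to 30 bases from the start are shown for 5 members, to let the letters be set beside the levels below: the member that passed the test (Kif23), a member lower in every labelled library (Ccnb2), the kinase of mitotic entry (Cdk1), the member with the highest level (Bub3) and a member without either kind of letters (Birc5). They are written 5' to 3' on the strand of the gene, from GRCm38.p6 in RefSeq, with the matched letters in capitals. Kif23 lies at chr9:61946770-61946899 on the minus strand, Ccnb2 at chr9:70421525-70421654 on the minus strand, Cdk1 at chr10:69352883-69353012 on the minus strand, Bub3 at chr7:131560270-131560399 on the plus strand and Birc5 at chr11:117849137-117849266 on the plus strand.
Kif23: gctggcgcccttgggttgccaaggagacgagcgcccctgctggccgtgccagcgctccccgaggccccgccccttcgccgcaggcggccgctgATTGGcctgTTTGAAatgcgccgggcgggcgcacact
Ccnb2: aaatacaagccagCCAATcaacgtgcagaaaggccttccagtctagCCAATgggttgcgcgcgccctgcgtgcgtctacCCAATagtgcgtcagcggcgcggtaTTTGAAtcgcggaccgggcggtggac
Cdk1: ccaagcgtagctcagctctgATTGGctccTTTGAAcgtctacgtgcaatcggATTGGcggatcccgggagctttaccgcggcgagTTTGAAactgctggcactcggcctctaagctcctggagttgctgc
Bub3: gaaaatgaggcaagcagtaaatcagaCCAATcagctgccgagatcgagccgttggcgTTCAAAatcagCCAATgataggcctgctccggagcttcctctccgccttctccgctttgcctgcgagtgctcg
Birc5: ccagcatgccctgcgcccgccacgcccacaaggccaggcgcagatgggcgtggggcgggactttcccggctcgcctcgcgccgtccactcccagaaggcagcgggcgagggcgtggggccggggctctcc

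Counting the RefSeq start as 0, the homology-region letters began at 2 in Kif23 and at 4 in Ccnb2, and at -71 and -15 in Cdk1. In the GENCODE annotation used for the counts, Kif23 starts at 61946774 and Ccnb2 at 70421547 on the minus strand, so there these letters of both genes begin before the annotated gene. In Bub3 the letters lay at -43 on the opposite strand, between a pair of CCAAT boxes. Bub3 has 2 RefSeq starts, and from the other start the same letters lay at -167. In GENCODE, Cdk1 starts at 69352938 on the minus strand and Bub3 at 131560222 on the plus strand. The letters at -15 in Cdk1 and at -43 in Bub3 thus lie within the annotated genes, while those at -71 in Cdk1 begin before it. Ccnb2 had 3 CCAAT boxes in the stretch, at -87, -54 and -21. Members with and without the homology-region letters did not fall into separate ranges of level: 21 genes with them ran from 0.116 to 29.4 TPM (transcripts per 1000000, from counts divided by exon length) with a median of 0.606 TPM, and 6 genes without them ran from 0.197 to 7.35 TPM with a median of 1.07 TPM.

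Total counts ran from 38947758 to 51024233 per library. Zfp36l1, the gene carried by the allele, had 471, 447, 437 and 402 counts per 1000000 (CPM, scaled by TMM factors) in the 4 libraries labelled GFP-ZFP36L1, against 599, 523, 532 and 535 CPM in the 4 controls. Zfp36l1 was lower in every labelled library (log2 fold change -0.32 ± 0.07 SE, edgeR quasi-likelihood, Benjamini-Hochberg adjusted p = 0.0348 over 13035 genes). This direction is opposite to the expression that the label names, but gene counts do not test the genotype. Groups are named below by their labels. The Zfp36l1 call was lost when 7 of the 8 libraries were left out in turn, all but GFP-ZFP36L1 replicate 1, with log2 fold changes between -0.34 and -0.27 over 17 alternatives. Gene counts do not tell transcripts of the allele from endogenous ones. Of the 13035 genes, 238 were called higher (1.83%) and 169 lower (1.3%) at an adjusted p under 0.05. Summed markers of follicular B cells ran from 18947 to 21651 CPM in labelled libraries and from 21137 to 22856 CPM in the controls. The labels give the gate as CD93 positive, although mature follicular B cells are usually sorted as CD93 negative. Cd93 had 11.3 ± 2.86 CPM in labelled libraries and 10.5 ± 2.003 CPM in the controls (SD, n = 4 each).

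Mitotic transcripts were scarce in both groups. All 32 together held 198, 187, 196 and 174 CPM in the libraries labelled GFP-ZFP36L1 (189 ± 11.2, SD, n = 4), against 207, 209, 191 and 192 CPM in the controls (200 ± 9.65, SD, n = 4). The groups overlapped, and the sum was 0.0193% of counts in labelled libraries and 0.0196% in the controls. For scale, Cd79a alone, which codes for a signalling chain of the B cell receptor, had 2389 ± 251 CPM in labelled libraries and 2675 ± 154 CPM in the controls (SD, n = 4 each). Divided by exon length, the 32 genes summed to 99.4 ± 3.11 TPM in labelled libraries and 99.7 ± 3.34 TPM in the controls.

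A few genes made up most of that sum. Bub3, a checkpoint protein that also has uses outside mitosis, held 35.8% of it, and Bub3, Cenpa, Mad2l1 and Ndc80 together held 70.4%. Without these 4, a set chosen after their values were seen, the other 28 genes summed to 58.8 ± 2.43 CPM (56.3 to 62.1) in labelled libraries and 56.1 ± 0.77 CPM (55.6 to 57.2) in the controls, with overlapping groups. Without Bub3 alone the sums were 124 ± 6.15 CPM in labelled libraries and 126 ± 5.81 CPM in the controls.

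Per unit of length the levels spanned a 253-fold range over the 32 genes, with means over 8 libraries from 0.116 TPM for Anln to 29.4 TPM for Bub3. The median was 1.07 TPM, against 18.9 TPM over all tested genes, and 31 of the 32 lay below that median. The lowest were Anln (0.116 TPM), Bub1 (0.118), Cenpf (0.120), Ube2c (0.128), Nuf2 (0.197), Ccna2 (0.237), Kif11 (0.249), Kif4 (0.291), Ttk (0.304), Cdk1 (0.353), Birc5 (0.380), Kif15 (0.474), Mki67 (0.577), Prc1 (0.606) and Tpx2 (0.734), which are the 15 members under 1 TPM. Of all tested genes, 11.6% lay under 1 TPM. Between 1 and 10 TPM stood Ccnb1 (1.02), Cenpe (1.11), Plk1 (1.13), Nusap1 (1.23), Kif20a (1.62), Top2a (1.65), Ccnb2 (1.68), Kif23 (2.17), Foxm1 (3.66), Aurka (3.99), Bub1b (4.19), Aurkb (4.22), Ndc80 (5.36), Cdc20 (7.15) and Mad2l1 (7.35). Of the 31 pairs of neighbours in this order, 21 differed by less than the larger SD of the pair (pooled within groups), as Anln (0.129 ± 0.0411 TPM in labelled libraries and 0.104 ± 0.0237 TPM in controls) did from Bub1 (0.126 ± 0.0447 TPM in labelled libraries and 0.109 ± 0.0497 TPM in controls, SD, n = 4 each). The 10 pairs beyond it were Birc5 and Kif15, Tpx2 and Ccnb1, Nusap1 and Kif20a, Ccnb2 and Kif23, Kif23 and Foxm1, Foxm1 and Aurka, Aurkb and Ndc80, Ndc80 and Cdc20, Mad2l1 and Cenpa, and Cenpa and Bub3. Cenpa (17.7 TPM) and Bub3 stood apart from the rest, at percentiles 48.6 and 61.3 of tested genes.

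**Figure D1:**
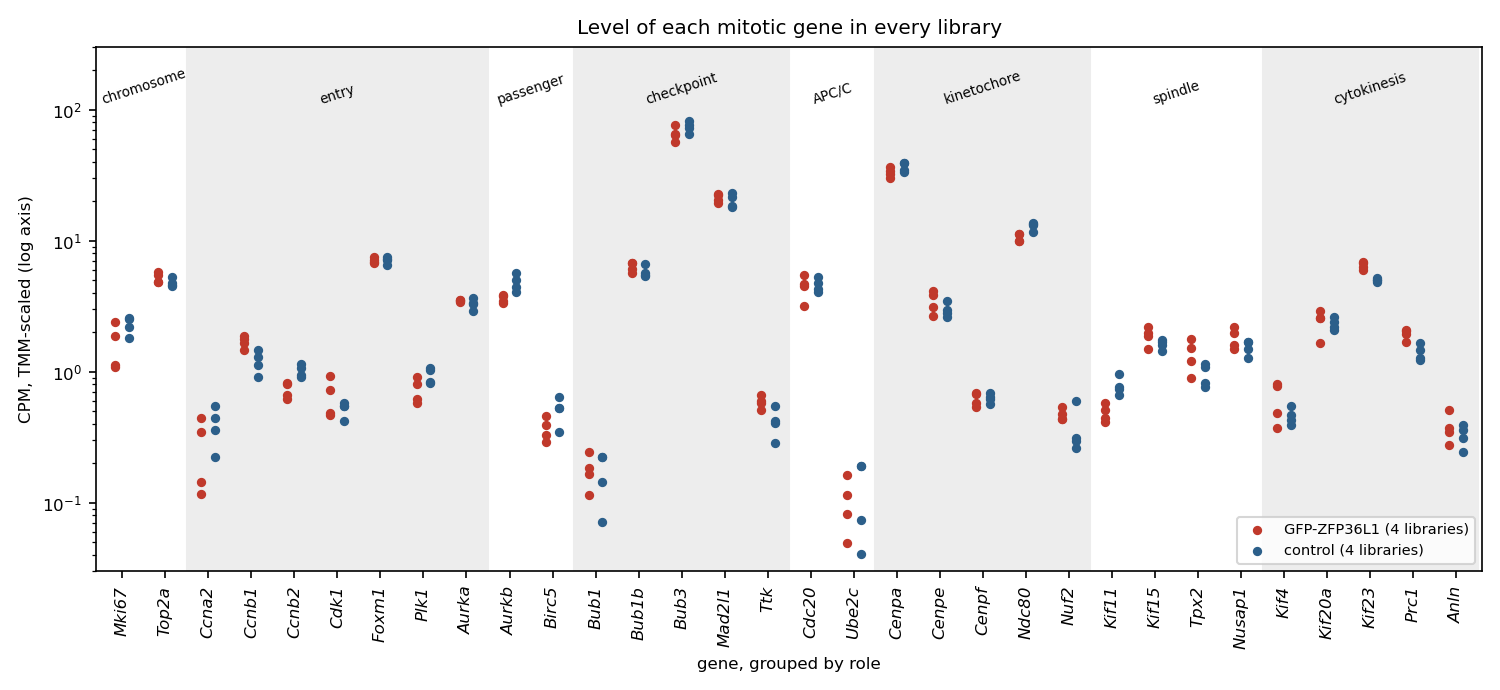
Each point is 1 library, with CPM on a log axis and the 32 genes grouped by role, libraries labelled GFP-ZFP36L1 (red) left of controls (blue). Summed over 8 libraries the genes had from 39 counts (Ube2c) to 24466 counts (Bub3), and for most genes the clouds of the groups overlap.

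No member was at 0 in any library. Across 8 libraries the summed counts had a median of 585.5 per gene. For the 13 members under 1 CPM, the ratio of variance to mean between libraries of a group, which is 1 for counting alone, had a median of 1.04. It was under 1.5 for 9 of them and above for Ccna2 (2.94), Kif4 (2.12), Cdk1 (1.95) and Ube2c (1.64). The median ratio was 1.96 for the 15 members from 1 to 10 CPM and 9.88 for the 4 at 10 CPM or more.

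Some other parts of the cell cycle machinery stood at higher levels in the same libraries. The 17 listed genes of the anaphase-promoting complex, the ubiquitin ligase that ends mitosis, and its regulators had a median of 27.4 TPM. The 14 listed genes of DREAM, the retinoblastoma family and their partners had a median of 22.7 TPM. That list includes Mybl2, the gene of B-MYB, at 1.54 TPM. For 28 DNA replication genes the median was 14.1 TPM, and 79 other mitotic genes had 1.74 TPM, near the 1.07 TPM of the members. These medians are levels over all 8 libraries, without a test.

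**Figure D2:**
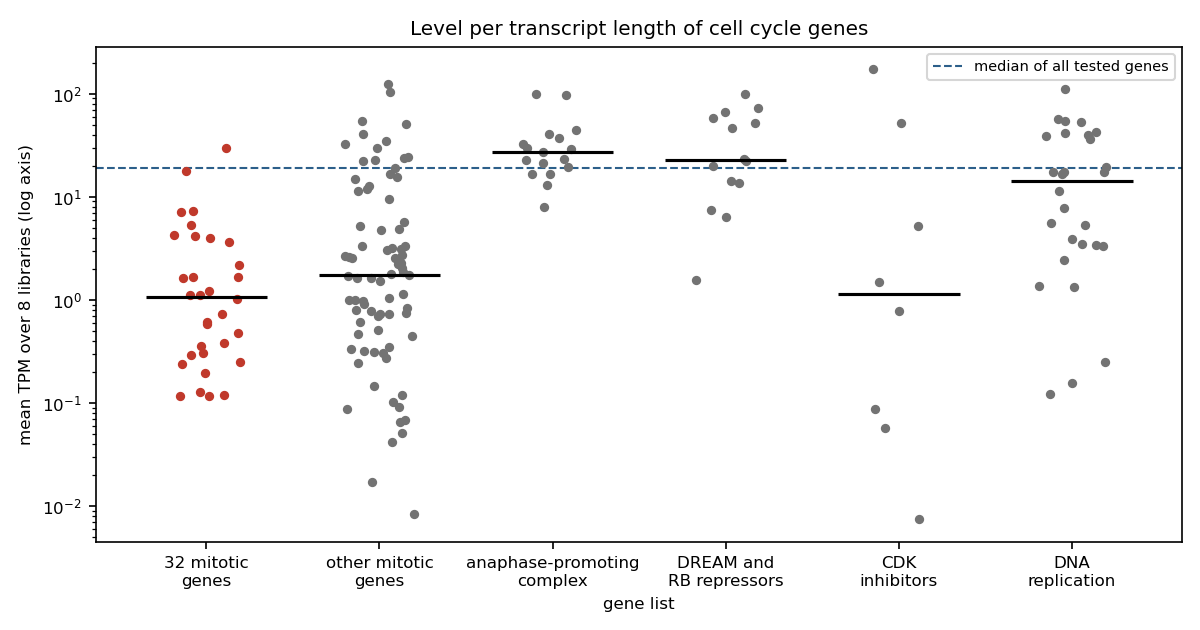
Each point is a gene, with its mean TPM over 8 libraries on a log axis, and black bars are list medians. The 32 mitotic genes (red, median 1.07 TPM) sit mostly below the dashed median of all tested genes (18.9 TPM), while the anaphase-promoting complex and the DREAM and retinoblastoma genes sit around it.

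Between the groups, 1 of the 30 tested members was called higher (Kif23), beside 1.83% of all tested genes, and 0 were called lower, beside 1.3%. At an unadjusted p under 0.05 stood 7 of the 30 (23.3%), 3 higher and 4 lower, where the same rule took 17.3% of all tested genes. DESeq2 called 1 member higher and 2 lower, beside 3.85% and 3.15% of the 12781 genes it gave an adjusted p. Limma voom called 2 higher and 0 lower, beside 4.37% and 3.8% of genes. The log2 fold changes were positive for 17 members and negative for 13, with a median of 0.07 against -0.01 over all tested genes. Groups did not overlap for 6 of the 30 (20%), beside 11.2% of all tested genes. Kif23 and Prc1 were higher in every labelled library than in any control, and Kif11, Ccnb2, Aurkb and Ndc80 were lower. The members thus did not move one way as a list.

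Precision differed widely between members. Standard errors ran from 0.08 to 0.43 on the log2 scale. The 95% interval stayed within 1.5-fold in either direction for 14 members, and it stayed within 2-fold for 22. For the other 8 tested members the interval reached beyond 2-fold, so a change of that size was not excluded. The median size of the log2 fold change, sign ignored, was 0.30 for the members and 0.09 for all tested genes. The members also stood at lower levels (median 1.07 TPM against 18.9 TPM), and no genes of matched level were compared. Counting spread at low levels was thus not separated from change, and these sizes do not show that mitotic genes changed more.

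**Figure D3:**
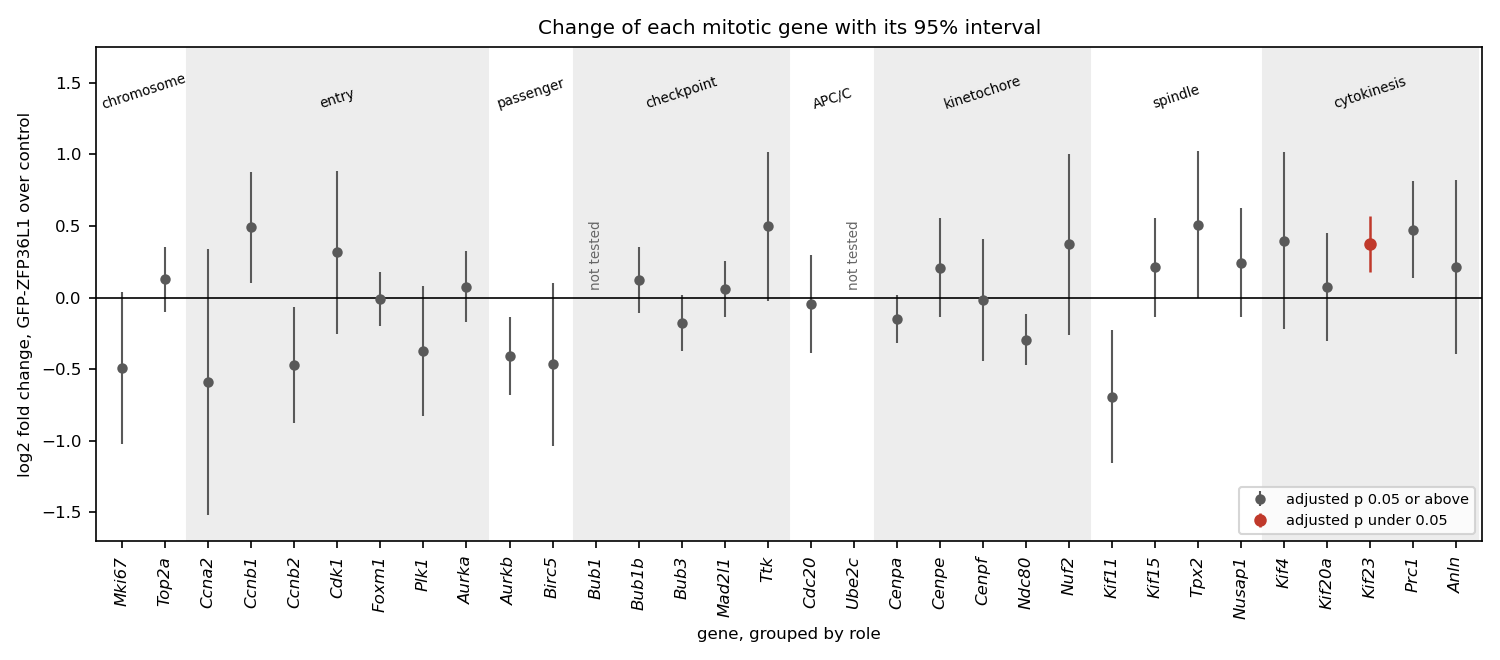
Points are log2 fold changes of libraries labelled GFP-ZFP36L1 over controls (4 libraries each) from edgeR, with bars for 95% intervals and genes grouped by role. Kif23 (red, 0.37) has an adjusted p under 0.05, and the other 29 tested genes do not.

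Genes of the central spindle and cytokinesis build the midzone between separating chromosomes and cut the cell. The 5 members grouped under this role all had positive log2 fold changes, with a median of 0.37. Positive changes were also held by 56.7% of tested members and 78.3% of tested other mitotic genes. Outside the members, the cytokinesis genes Racgap1 (0.07), Ect2 (0.23) and Cit (0.30) were positive and Cep55 (-0.06) negative, none called. Intervals of Kif4, Kif20a and Anln ran from negative to positive values. The count thus does not show a change of this role as a group. Kif23 (chr9:61915905-61946774, minus strand), the kinesin of the centralspindlin complex, had 5.96, 6.74, 6.92 and 6.29 CPM in the libraries labelled GFP-ZFP36L1, against 5.01, 4.83, 5.19 and 4.96 CPM in the controls. Every labelled library was above every control, and Kif23 rose by 0.37 ± 0.09 (log2, SE), or 1.3-fold, with an edgeR adjusted p of 0.0489. The adjusted p was between 0.00792 and 0.148 over 17 alternatives. The call was lost without a filter on low counts (0.0823), without the robust prior (0.0501) and when 7 of the 8 libraries were left out in turn (all but GFP-ZFP36L1 replicate 1), while the log2 fold change stayed between 0.34 and 0.42.

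Prc1, which bundles microtubules of the central spindle, had 2.07, 2.05, 1.68 and 1.95 CPM in the labelled libraries, against 1.65, 1.27, 1.45 and 1.23 CPM in the controls. Its groups did not overlap, but by a narrow gap, and it did not pass the test (log2 fold change 0.47 ± 0.16 SE, adjusted p = 0.129, edgeR). Prc1 overlaps Rccd1 on the other strand over 21810 bp, the whole span of Prc1 with its introns. Rccd1 had 34.6 CPM in labelled libraries and 34.3 CPM in the controls. Overlaps here and below are of gene spans, and the overlap of exons was not measured. In all, 18 of the 32 members overlap another annotated gene and 9 a protein-coding one. No source used here states whether counting used the strand, so reads of such pairs may not be fully apart. Anln, the actin-binding anillin of the contractile ring, had 0.276, 0.370, 0.346 and 0.512 CPM in the labelled libraries, against 0.310, 0.241, 0.357 and 0.393 CPM in the controls. These values overlapped (0.21 ± 0.28 SE, adjusted p = 0.756, edgeR). The mitotic kinesins Kif4 (0.61 ± 0.217 CPM in labelled libraries and 0.458 ± 0.0669 CPM in controls) and Kif20a (2.42 ± 0.53 CPM in labelled libraries and 2.31 ± 0.246 CPM in controls, SD, n = 4 each) had log2 fold changes of 0.40 and 0.07. Kif4 overlaps Pdzd11 over 832 bp and Kif20a overlaps Cdc23 over 2327 bp, each on opposite strands.

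The chromosomal passenger genes among the members, Aurkb and Birc5, had negative log2 fold changes, while the other subunit genes of the complex, Incenp and Cdca8, had positive ones (0.06 and 0.24), none of them called. Aurkb (chr11:69045647-69051664, plus strand), the kinase of the passenger complex that corrects faulty attachments of chromosomes and later acts at the midzone, had 3.32, 3.76, 3.85 and 3.44 CPM in the libraries labelled GFP-ZFP36L1, against 4.08, 4.41, 4.97 and 5.63 CPM in the controls. No labelled library reached the lowest control, yet the difference did not pass the test (log2 fold change -0.41 ± 0.12 SE, adjusted p = 0.106, edgeR). Aurkb was called with DESeq2 (adjusted p = 0.0461), with the title number of each library, 1 to 8, as a term (0.0234) and with a surrogate variable (0.0244). Birc5 (survivin), the passenger subunit that docks the complex on chromosomes, had 0.391, 0.329, 0.461 and 0.292 CPM in the labelled libraries, against 0.645, 0.523, 0.523 and 0.344 CPM in the controls. Control replicate 4 lay among the labelled libraries, and the test was not passed (-0.47 ± 0.26 SE, adjusted p = 0.396, edgeR).

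Among genes of mitotic entry, 3 of 7 log2 fold changes were positive and 4 negative, and the B-type cyclins stood on opposite sides of 0. Ccnb1, the main cyclin partner of CDK1, had 1.45, 1.64, 1.78 and 1.85 CPM in the libraries labelled GFP-ZFP36L1, against 1.46, 1.29, 1.12 and 0.909 CPM in the controls. The groups met at labelled replicate 1 and control replicate 1 (0.49 ± 0.18 SE, adjusted p = 0.167, edgeR), with a call in limma voom alone (adjusted p = 0.0422). Ccnb2, the other B-type cyclin, had 0.806, 0.821, 0.623 and 0.658 CPM in the labelled libraries, against 1.15, 0.905, 1.07 and 0.934 CPM in the controls. All labelled libraries were below all controls without passing the test (-0.47 ± 0.19 SE, adjusted p = 0.208, edgeR). The difference between the changes of Ccnb1 and Ccnb2 was not tested.

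Cdk1, the kinase that drives entry into mitosis, had 0.484, 0.719, 0.922 and 0.463 CPM in the labelled libraries, against 0.549, 0.543, 0.571 and 0.418 CPM in the controls. Labelled replicates 2 and 3 were above all controls and replicates 1 and 4 lay among them (0.32 ± 0.26 SE, adjusted p = 0.592, edgeR), and without labelled replicate 3 the Cdk1 value was 0.10. Ccna2, the cyclin of S phase and G2, had 0.345, 0.144, 0.115 and 0.439 CPM in the labelled libraries, against 0.549, 0.221, 0.357 and 0.442 CPM in the controls. Its values were spread widely in both groups (-0.59 ± 0.43 SE, adjusted p = 0.528, edgeR) and the log2 fold change of Ccna2 ran from -0.94 to -0.35 without 1 library. It overlaps Exosc9 on the other strand over 863 bp. Foxm1, the transcription factor of G2 genes, was the most even, at 7.04 ± 0.303 CPM in labelled libraries and 7.09 ± 0.427 CPM in the controls. Aurka, the kinase of centrosomes and spindle poles, had 3.48 ± 0.0547 CPM in labelled libraries and 3.30 ± 0.311 CPM in controls, and Plk1, a kinase of many mitotic steps, had 0.726 ± 0.154 CPM in labelled libraries and 0.939 ± 0.128 CPM in controls (SD, n = 4 each).

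Mki67 and Top2a, the common markers of dividing cells that act on mitotic chromosome structure, differed in sign. Mki67, which codes for the Ki-67 protein that coats mitotic chromosomes, had 1.13, 1.09, 1.87 and 2.39 CPM in the libraries labelled GFP-ZFP36L1, against 1.81, 2.17, 2.52 and 2.55 CPM in the controls. Labelled replicates 1 and 2 were below all controls and replicates 3 and 4 lay among them (-0.49 ± 0.24 SE, adjusted p = 0.331, edgeR). With the title number as a term the log2 fold change of Mki67 was -0.67 (adjusted p = 0.0228), and with a surrogate variable it was -0.67 (0.0184), so Mki67 was called lower under these and under none of the other 15 alternatives. Top2a, the topoisomerase that untangles sister chromosomes, had 4.84, 4.78, 5.44 and 5.80 CPM in the labelled libraries, against 4.73, 5.23, 4.62 and 4.50 CPM in the controls. These overlapped (0.13 ± 0.11 SE, adjusted p = 0.590, edgeR), and the 95% interval ran from -0.10 to 0.36.

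Spindle checkpoint genes, whose products hold back anaphase until chromosomes are attached, included Bub3 and Mad2l1, the first and the third in CPM among the members, and also the low Bub1 and Ttk. Bub3 had 76.1, 64.6, 64.2 and 56.4 CPM in the libraries labelled GFP-ZFP36L1, against 81.6, 76.5, 72.3 and 65.3 CPM in the controls. The groups overlapped (-0.18 ± 0.09 SE, adjusted p = 0.340, edgeR). Mad2l1, the MAD2 inhibitor of CDC20, had 22.7, 20.5, 22.3 and 19.2 CPM in the labelled libraries, against 21.6, 23.1, 18.1 and 18.5 CPM in the controls, and its groups overlapped (0.06 ± 0.09 SE, adjusted p = 0.791, edgeR). Bub1b, the BUBR1 checkpoint protein, had 6.28 ± 0.563 CPM in labelled libraries and 5.76 ± 0.57 CPM in controls, and the kinase gene Ttk had 0.588 ± 0.0642 CPM in labelled libraries and 0.413 ± 0.105 CPM in controls (SD, n = 4 each). Bub1, the checkpoint kinase, was too low to be tested, with 31 counts over the 4 labelled libraries (95% exact Poisson interval 21.1 to 44.0, counting error only) and 29 over the controls (19.4 to 41.6).

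The partners of the anaphase-promoting complex gave no difference beyond their spread. Cdc20, its mitotic activator, had 4.43 ± 0.936 CPM in labelled libraries and 4.57 ± 0.543 CPM in the controls (SD, n = 4 each). Ube2c, its ubiquitin-conjugating enzyme, was not tested, with 18 counts over the labelled libraries (95% exact Poisson interval 10.7 to 28.4) and 21 over the controls (13.0 to 32.1).

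At the centromere and kinetochore, where chromosomes bind the spindle, 2 of 5 log2 fold changes were positive and 3 negative. Ndc80 (chr17:71496100-71526857, minus strand), a subunit of the complex that grips microtubules, had 11.2, 9.84, 11.2 and 9.96 CPM in the libraries labelled GFP-ZFP36L1, against 13.4, 13.6, 11.6 and 13.0 CPM in the controls. The highest labelled library lay just below the lowest control (-0.29 ± 0.08 SE, adjusted p = 0.0815, edgeR). Ndc80 was called with DESeq2 (adjusted p = 0.0234), with the title number as a term (0.0406) and with a surrogate variable (0.0324). Nuf2, the partner of NDC80 in that complex, had 0.437, 0.472, 0.438 and 0.536 CPM in the labelled libraries, against 0.597, 0.261, 0.309 and 0.295 CPM in the controls. Control replicate 1 was above all labelled libraries and the other controls below them (0.37 ± 0.29 SE, adjusted p = 0.562, edgeR). Cenpa, the histone variant that marks the centromere, had 32.1, 33.7, 36.5 and 29.8 CPM in the labelled libraries, against 34.6, 39.1, 33.6 and 39.3 CPM in the controls. Its groups overlapped (-0.15 ± 0.08 SE, adjusted p = 0.345, edgeR). The kinetochore motor gene Cenpe had 3.44 ± 0.67 CPM in labelled libraries and 2.96 ± 0.36 CPM in controls, and Cenpf, which codes for a large outer kinetochore protein, had 0.62 ± 0.0764 CPM in labelled libraries and 0.628 ± 0.0495 CPM in controls (SD, n = 4 each).

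Of the 4 spindle assembly genes, 3 had positive log2 fold changes and Kif11 the most negative of all members. Kif11 (chr19:37376403-37421859, plus strand), the motor that pushes spindle poles apart, had 0.507, 0.411, 0.576 and 0.439 CPM in the libraries labelled GFP-ZFP36L1, against 0.955, 0.764, 0.737 and 0.663 CPM in the controls. Groups did not overlap, at 18 to 25 counts per labelled library and 27 to 40 per control, and the test was not passed (-0.69 ± 0.21 SE, adjusted p = 0.110, edgeR). Tpx2, which activates Aurora A on spindle microtubules, had 1.197, 1.77, 0.899 and 1.51 CPM in the labelled libraries, against 1.07, 0.764, 1.14 and 0.811 CPM in the controls. Its log2 fold change was the highest of the tested members, with overlapping groups (0.51 ± 0.23 SE, adjusted p = 0.289, edgeR). Kif15, a motor that backs up KIF11, had 1.87 ± 0.297 CPM in labelled libraries and 1.61 ± 0.133 CPM in controls, and Nusap1, a microtubule-binding protein gene, had 1.81 ± 0.331 CPM in labelled libraries and 1.52 ± 0.198 CPM in controls (SD, n = 4 each).

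**Figure D4:**
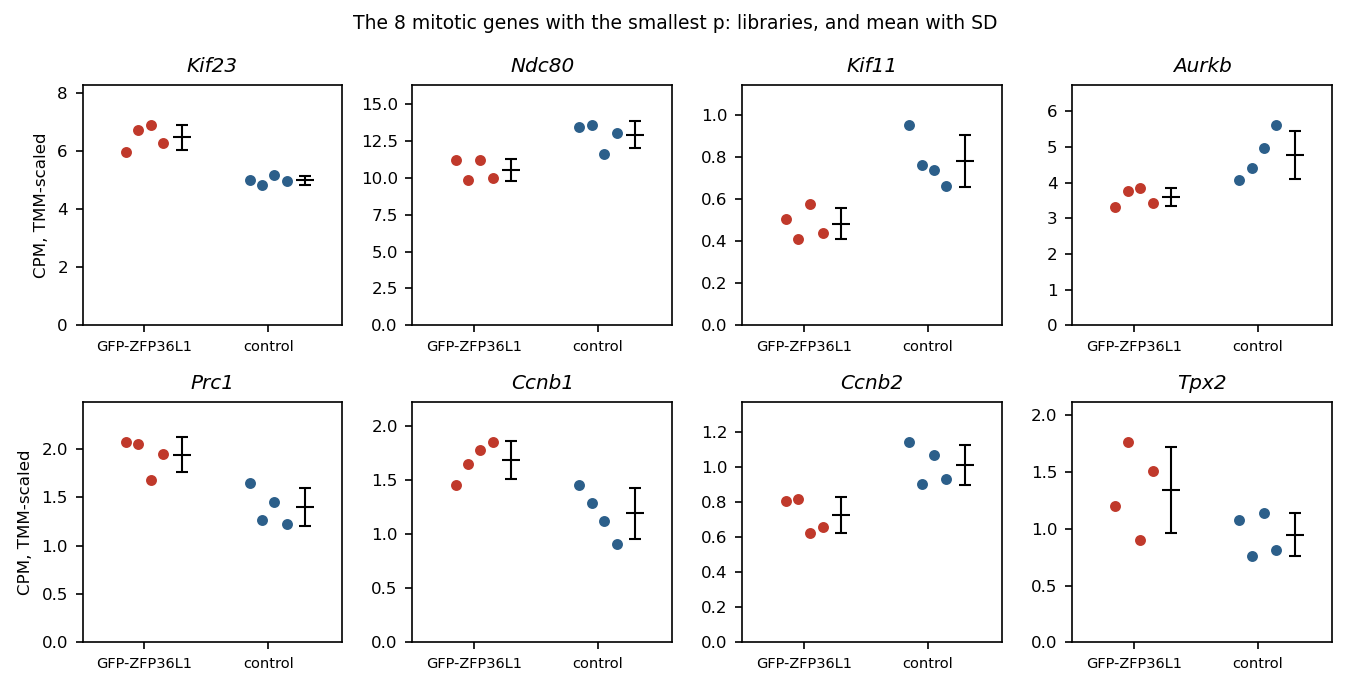
Each panel gives a gene's CPM in the 4 libraries labelled GFP-ZFP36L1 (red, left) and the 4 controls (blue, right), with bars for mean and SD and axes from 0. Kif23 and Prc1 lie higher and Ndc80, Kif11, Aurkb and Ccnb2 lower in every labelled library, while Ccnb1 and Tpx2 overlap.

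The authors' deposited table gives an adjusted p under 0.05 to 3 members and to 875 of 13191 genes (6.63%). In the authors' deposited table these are Kif23 (log2 fold change 0.315, adjusted p = 0.00789), Ndc80 (-0.254, adjusted p = 0.0251) and Aurkb (-0.303, adjusted p = 0.044). All 30 tested members had the same sign in the authors' deposited table and in edgeR. For these 3 genes the log2 fold changes of the authors' deposited table were smaller in size than those from edgeR. The settings behind the authors' values are not given, so the sizes may not be like for like.

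Within groups the members showed little common movement by pairwise correlation. Taking log2 CPM minus the group mean over the 8 libraries, which share depth and scaling, the 171 pairs of the 19 members of at least 1 CPM had a median Pearson r of 0.05, and 50.9% of pairs were positive. The 378 pairs of 28 DNA replication genes had a median r of 0.05. By contrast the 6 pairs of 4 tested erythroid markers had a median r of 0.88. These markers are haemoglobin genes and include near-identical copies that can share reads. Counting spread can lower r, and the 15 members from 1 to 10 CPM had a median ratio of variance to mean of 1.96. The low r of the members thus does not exclude common movement. The number of the 30 tested members above their own median was 13, 13, 20 and 14 in labelled libraries and 16, 18, 15 and 11 in the controls. The genes whose log2 CPM over 8 libraries was most like the mean of 29 tested members (all but Bub3) were Dnajc17 (Pearson r = 0.965), Slc35b2 (0.925), Phf2os1 (0.916), Plk3 (0.909), Mtln (0.897), Echs1 (0.896), Zfp867 (0.895), Tsen15 (0.887), Cyb5r1 (0.879) and Tmem9 (0.875), of 9918 genes compared. These are the highest values among many genes over only 8 libraries. They were not tested and do not show that these genes follow the members.

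The wider machinery gave few calls. Of 69 tested further mitotic genes, Cenpi, a centromere protein gene, was called higher (2.61 ± 0.106 CPM in labelled libraries and 1.71 ± 0.0597 CPM in controls, log2 fold change 0.61 ± 0.12 SE, adjusted p = 0.0255, edgeR). The Cenpi call was lost when 6 of the 8 libraries were left out in turn (all but GFP-ZFP36L1 replicates 1 and 4). Smc4, a condensin subunit gene, was called lower (166 ± 15.1 CPM in labelled libraries and 200 ± 5.76 CPM in controls, -0.27 ± 0.07 SE, adjusted p = 0.0469, edgeR). The Smc4 call was lost without the robust prior and without any 1 of 7 libraries (all but GFP-ZFP36L1 replicate 1), with adjusted p up to 0.148. The list had 54 positive and 15 negative log2 fold changes (78.3% positive) and a median of 0.15, beside 56.7% of the tested members and 47.9% of all tested genes.

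None of the 17 genes of the anaphase-promoting complex list, the 14 of the DREAM and retinoblastoma list, the 5 tested CDK inhibitors or the 28 DNA replication genes was called in edgeR, with medians of 0.01, -0.03, -0.04 and -0.01. At an unadjusted p under 0.05 stood 3, 0, 2 and 3 of them in that order, where the same rule took 17.3% of all tested genes. It took 14 of the 69 further mitotic genes. Over these lists and the further mitotic genes, DESeq2 called 3 higher and 3 lower and limma voom 5 higher and 3 lower, against 1 and 1 in edgeR. Their smallest p belonged to Ube2s, an E2 enzyme of the complex (log2 fold change -0.42, adjusted p = 0.0934, edgeR), Tfdp2, an E2F partner (0.16, adjusted p = 0.358, edgeR), Cdkn1a and Lig1, the replicative DNA ligase gene (0.22, adjusted p = 0.0702, edgeR). Cdkn1a, which codes for the CDK inhibitor p21, had 1.38 ± 0.462 CPM in labelled libraries and 2.24 ± 0.261 CPM in the controls (-0.70 ± 0.22 SE, adjusted p = 0.115, edgeR).

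Markers of other cells that the gate could hold are given for whole lists. Germinal centre markers summed to 87.4 to 163 CPM in labelled libraries and 111 to 164 CPM in controls. Of the 5 tested genes, 0 were called in edgeR and 2 had an unadjusted p under 0.05 (Rgs13 and Nuggc, both lower). Of all tested genes, 17.3% had an unadjusted p under 0.05. Plasmablast markers summed to 503 to 547 CPM in labelled libraries and 471 to 502 CPM in the controls, with 0 of 6 called in edgeR, 3 at an unadjusted p under 0.05 and Tnfrsf17 at 0 in every library. Of those 3, Prdm1 (log2 fold change 0.59) and Irf4 (0.14) were higher and Jchain (-0.79) lower, and the 6 tested genes were 3 positive and 3 negative. Irf4, which follicular B cells also express, held 229 ± 8.63 CPM of this in labelled libraries and 208 ± 9.27 CPM in controls (SD, n = 4 each). Early B cell markers summed to 9.39 to 15.6 CPM in labelled libraries and 9.07 to 13.6 CPM in controls, with Igll1 and Dntt at 0. The plasmablast sum did not overlap between the groups (lowest labelled library 503 CPM, highest control 502 CPM).

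Erythroid markers summed to 3.78 to 8.55 CPM in labelled libraries and 2.63 to 13.5 CPM in the controls. T and NK cell markers summed to 34.1 to 35.2 CPM in labelled libraries and 31.9 to 35.04 CPM in controls, almost all from Lck, with Ncr1 at 0. Myeloid markers summed to 5.94 to 6.503 CPM in labelled libraries and 7.74 to 9.05 CPM in controls, without overlap and with Elane at 0. Of the 4 tested myeloid genes 0 were called in edgeR, with 1 positive and 3 negative log2 fold changes. Csf1r (0.11) was positive, and Lyz2 (-0.15), Cd68 (-0.31) and Adgre1 were negative. Adgre1, a macrophage surface protein gene, had 1.73 ± 0.65 CPM in labelled libraries and 3.21 ± 0.574 CPM in controls (-0.89 ± 0.25 SE, adjusted p = 0.0815, edgeR). The follicular markers Pax5 (-0.22, adjusted p = 0.0405, edgeR) and Ighd (-0.33, adjusted p = 0.0493, edgeR) fell in the labelled libraries. The Pax5 call was lost with upper-quartile factors, without a filter and without any 1 of 5 libraries (GFP-ZFP36L1 replicates 2 and 3, control replicates 2, 3 and 4). The Ighd call was lost without any 1 of 7 libraries (all but GFP-ZFP36L1 replicate 1). No plasmablast or myeloid marker was called in edgeR, and the summed follicular markers overlapped between the groups. Whether differences in these marker lists had a part in the values of Kif23, Ndc80, Aurkb and Kif11 was not tested.

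ZFP36 family proteins bind the heptamer UAUUUAU, read here as TATTTAT in the longest annotated 3' UTR of each gene (GENCODE M21, GRCm38). It was present in 12 of the 32 members (37.5%), 23 times in all, against 29.6% of 10978 tested genes and 27.4% of 21173 genes with a 3' UTR. Windows of 27 bases 5' to 3' on the strand of the gene (minus for Ccnb1 and Ndc80, plus for Bub3) show an isolated site of Ccnb1, an isolated site of Ndc80 and a run of overlapping sites of Bub3, whose log2 fold changes were 0.49, -0.29 and -0.18. The central heptamer is in capitals.
Ccnb1, chr13:100779237-100779263: tttatgtaatTATTTATttgttcttaa
Ndc80, chr17:71513576-71513602: tttaaggattTATTTATtatatgtaag
Bub3, chr7:131569815-131569841: tttatttattTATTTATttatttaaaa

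The 11 tested members with the heptamer had 6 positive and 5 negative log2 fold changes with a median of 0.06, and the 19 without it had 11 positive and 8 negative with a median of 0.08. Kif23, the called member, has none in its 3' UTR of 384 bases. By promoter, the 19 tested members with homology-region letters had 10 positive and 9 negative changes (median 0.08), and the 6 without them had 5 positive and 1 negative (median 0.23). Neither feature separated members that stood higher from those that stood lower.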

How the data were processed

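RNA-seq counts of 8 libraries of sorted mouse follicular B cells were analysed, 4 labelled GFP-ZFP36L1 and 4 controls. A stranded mRNA kit was used, per the labels' protocols. The submitters' processing notes list GRCm38, HTSeq, Trim Galore, DESeq2 1.10.1 and TopHat2 2.0.12, without order or settings. The authors deposited raw counts per gene, which were the basis of every test, normalized values (a signal) that were not used, and a comparison table with log2 fold changes and p-values, copied only where named.

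Counts were tested in R 4.3.3 with edgeR 4.0.16 (filterByExpr, TMM, quasi-likelihood test with robust prior, group as sole term, Benjamini-Hochberg adjustment over 13035 genes). An adjusted p under 0.05 was called. Total counts were 38947758 to 51024233 per library. CPM used library sizes slightly below these totals, scaled by TMM factors. TPM used merged exon lengths of GENCODE M21. Counting intervals are 95% exact Poisson. The test was checked on simulated counts. Motifs were searched in RefSeq promoters and GENCODE 3' UTRs.

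Values per library are printed for Mki67, Top2a, Ccnb1, Cdk1, Birc5 and Bub3, called members, the 8 with the smallest p and the 3 highest and 3 lowest tested. Members and lists were chosen with earlier results of these data known. Alternatives were DESeq2 1.42.0, upper-quartile and RLE factors, limma 3.58.1 (voom, quality weights), no filter, 1 CPM in 4 libraries, no robust prior, the title number as a linear term, 1 surrogate variable (sva 3.50.0) and each library left out in turn.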

Additional observations from a re-analysis of the deposited data

Results flagged for a closer look

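Nuf2, a subunit gene of the NDC80 kinetochore complex, had 0.597 CPM in control replicate 1, while the other 3 controls lay between 0.261 and 0.309 CPM. This library stood apart from its group by the gap relative to the range. Of 68 groups of 4 values examined, 1 was so marked, and chance marks about 1 in 20.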

How the results depend on the processing

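Kif23 stayed positive under all 17 alternatives and was called in 8 of them. The genes called higher, 238, were 492 with DESeq2, 569 with voom, 523 with the title number, 617 with a surrogate variable and 52 to 536 without 1 library. Those called lower, 169, were 403, 495, 507 and 626 in the same order, and 27 to 412 without 1 library. Members called higher (1) were 2 with voom, 0 without the filter, 0 without the robust prior and 0 to 1 without 1 library. Members called lower (0) were 2 with DESeq2 (Aurkb and Ndc80), 3 with the title number and 3 with a surrogate variable (these and Mki67). In the gene lists on the cell cycle, calls higher (1) were 3 with DESeq2, 5 with voom, 4 with the title number, 4 with a surrogate variable and 0 to 4 without 1 library. Calls lower there (1) were 3, 3, 3 and 4 in that order, 0 without the robust prior and 0 to 3 without 1 library. Among members, 26 kept their direction under all alternatives. Foxm1 (-0.01) turned to 0.0066 with upper-quartile factors and 0.043 with voom, and ran from -0.051 to 0.019 without 1 library. Cdc20 (-0.05) turned to 0.048 with voom, 0.0118 with the title number and 0.0117 with a surrogate variable, and ran from -0.16 to 0.088 without 1 library. Cenpf (-0.02) turned to 0.039 with voom and 0.00080 with the title number, and ran from -0.072 to 0.049 without 1 library. Kif20a (0.07) ran from -0.022 to 0.22 without 1 library. The median of the members ran from 0.02 to 0.11, and 12 (with 1 CPM in 4 libraries, where fewer members were tested) to 20 of them were positive. The summed level of 189 CPM in labelled libraries and 200 CPM in controls was 124 and 126 CPM without Bub3, and 58.8 and 56.1 CPM without Bub3, Cenpa, Mad2l1 and Ndc80. Apart from such constructions the cause was not tested. The set without 4 genes, and the counts of positive changes under alternatives, were chosen after seeing the data. The labels give no pairing of libraries across the groups, and no paired analysis was run. Title numbers alternate between controls and labelled libraries. The first principal component of log2 CPM (37.3% of variance) kept the order of title number within each group. It ran from -23.1 to -3.26 in controls and from -7.54 to 33.0 in labelled libraries. Title number was a term in an alternative fit, not in the main one. Counting error is of the size of the spread for 9 of the 13 members under 1 CPM.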
